A study of Homo sapiens with 8 samples.

Results

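Transcripts of 36 genes of autophagy and of the lysosome were followed in H929 and KMS11, established multiple myeloma (MM) cell lines of malignant plasma cells that both carry the t(4;14) translocation. The genes were taken from a list by their GENCODE symbol, by a rule that uses no measured value, and they are 36 of the 58219 genes listed in each file. The list itself was chosen with earlier results of these data known. All 36 passed the filter on low counts and so belong to the 13129 protein-coding genes tested. Cells of each line grew in RPMI 1640 with 10% FBS and were exposed for 24 h to 2 µM fluvastatin, a statin that inhibits HMG-CoA reductase, or to ethanol as the solvent. There were 2 biological replicates of each line and treatment and 8 libraries in all, with 26702515 to 41910446 expected counts each. Each line stands for a single tumor of origin, so that a difference between the lines is a difference between these 2 cultures.

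By their labels the cells are plasma cells, and 7 plasma cell markers were checked. All 7 were measured in H929, at 164.9 CPM (counts-per-million of the protein-coding counts, TMM-scaled) or more in every library. In KMS11, 6 of them were at 65.53 CPM or more, but CD38 was between 0.104 and 0.301 CPM, so that this marker was nearly absent there. Of 8 markers of other cell types, CD14 was at 0 in every library, MS4A1 at 0.0340 CPM or less, and EPCAM at 60.8 to 68.65 CPM in KMS11 but at 0.0439 CPM or less in H929. PECAM1 was the highest of them in H929, at 24.68 to 28.19 CPM, and was at 4.22 to 6.48 CPM in KMS11. LYZ, COL1A1 and HBB were at 0.522 CPM or less. Summed over these 8 genes, the level was 29.6 to 31.0 CPM in H929 in ethanol, 35.08 to 38.7 CPM in H929 in fluvastatin, 69.02 to 70.35 CPM in KMS11 in ethanol and 66.29 to 75.04 CPM in KMS11 in fluvastatin. Of the 7 plasma cell markers, SDC1, SLAMF7 and XBP1 fell in H929 under fluvastatin, with log2 fold changes of -1.08, -0.98 and -0.34, PRDM1 rose by 0.32, and IRF4, TNFRSF17 and CD38 did not pass. In KMS11 only XBP1 of them passed, with -0.40. In H929 CD3E, at 4.08 to 9.91 CPM in that line, rose by 1.13. The part of these shifts in the results below was not tested.

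Macroautophagy encloses cytoplasm in a new membrane, the autophagosome, which fuses with the lysosome so that its contents are degraded and reused. The ULK1 and Beclin 1 complexes start the membrane, ATG9A and ATG2A bring lipid to it, WIPI proteins mark it, and conjugation enzymes attach proteins of the ATG8 family (LC3 and GABARAP) to it, where receptors such as p62 dock their cargo. The lysosome is acidified by the vacuolar ATPase, degrades with cathepsins and glycosidases, and exports cholesterol through NPC2 and NPC1. Transcription factors of the TFE group, TFEB, TFE3 and MITF, are known to activate many of these genes through a palindromic E-box called the CLEAR element. Plasma cells secrete large amounts of immunoglobulin, and autophagy is known to help them to survive.

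The letters of this element were looked up in the RefSeq promoter windows of build GRCh38.p14, each from 250 bases before to 50 bases after a gene's start, of which 41 belong to 31 of the 36 genes. No window was at hand for LAMP2, HEXA, CTSB, ATP6V1A and ATP6V1H. The CLEAR core TCACGTGA, which is its own reverse complement, occurred in 0.98% of all 35116 windows, and by gene in windows of 321 of 27305 genes. It occurred in windows of 4 of 10 lysosome genes, namely LAMP1, CTSA, MCOLN1 and ATP6V0D1, and of 1 of 18 autophagy genes, ATG3. The shorter E-box CACGTG, which lies within the core and so is found wherever the core is, occurred in 7.26% of all windows, and among the lysosome genes it was also found in NEU1 and CTSD. The M-box TCATGTGA, searched on both strands, occurred in 1.0% of all windows and in none of these genes. The windows that hold a match are shown first, since they hold the letters that TFE factors are known to bind, with the E-box or core in capitals and 16 bases on either side.
CTSA: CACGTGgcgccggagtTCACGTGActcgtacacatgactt
MCOLN1: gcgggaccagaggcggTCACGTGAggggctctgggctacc
ATP6V0D1: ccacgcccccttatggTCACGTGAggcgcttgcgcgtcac
ATG3: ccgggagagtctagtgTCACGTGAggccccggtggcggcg
NEU1: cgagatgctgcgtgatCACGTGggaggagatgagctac
CTSD: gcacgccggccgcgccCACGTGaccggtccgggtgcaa
The stretch of CTSA lies on the plus strand at chr20:45891293-45891332 and its left-hand capitals are a further E-box. That of MCOLN1, the first of its 2 matches, lies on the plus strand at chr19:7522566-7522605, that of ATP6V0D1 on the minus strand at chr16:67481194-67481233 and that of ATG3 on the minus strand at chr3:112561935-112561974. The stretches of NEU1, chr6:31862926-31862963, and of CTSD, chr11:1763953-1763990, are also from the minus strand.

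LAMP1 had the most E-boxes of these genes, 6 with those inside its 2 CLEAR cores, and its whole window on the plus strand, chr13:113296989-113297288, is given with every match in capitals. It is followed by that of CTSL on the plus strand, chr9:87725869-87726168, because CTSL had the largest rise of the 36 genes in H929 and its window held none of the 3 motifs.
LAMP1: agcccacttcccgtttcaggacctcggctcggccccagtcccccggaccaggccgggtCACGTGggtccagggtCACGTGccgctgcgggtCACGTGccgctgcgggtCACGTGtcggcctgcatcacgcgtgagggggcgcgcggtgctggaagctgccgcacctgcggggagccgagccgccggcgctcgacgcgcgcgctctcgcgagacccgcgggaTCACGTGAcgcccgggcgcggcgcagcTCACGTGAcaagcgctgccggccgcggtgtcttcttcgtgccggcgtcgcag
CTSL: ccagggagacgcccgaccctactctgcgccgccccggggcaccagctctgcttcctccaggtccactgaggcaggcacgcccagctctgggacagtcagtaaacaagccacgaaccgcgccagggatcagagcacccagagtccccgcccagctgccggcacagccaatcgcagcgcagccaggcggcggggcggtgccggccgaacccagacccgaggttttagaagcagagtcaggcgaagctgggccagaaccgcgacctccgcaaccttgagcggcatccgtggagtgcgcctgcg
The windows of WIPI1, MAP1LC3B, NBR1, SQSTM1, GLA and NPC1 held none of the motifs either. A match is a stretch of letters and not a measured binding site, and the absence of these letters from 300 bases says nothing of sites elsewhere. RefSeq and GENCODE place some starts differently, and the window of CTSL lies inside the gene as GENCODE draws it.

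In H929, 17 of the 36 genes passed an adjusted p of 0.05, 16 higher and 1 lower in fluvastatin. Among all genes tested the share past the threshold was 42.0%, with 22.7% higher and 19.3% lower, so that the total was near the background and the higher calls were the more frequent ones. In KMS11, 3 genes passed, all of them higher, against 3.12% of all genes tested and 2.58% in that direction. The median log2 fold change of the 36 genes was 0.26 in H929, where the median of all genes tested was 0.022, and 0.098 in KMS11, where it was 0.004. With 2 libraries in a group, both libraries of fluvastatin lay above both of ethanol for 22 genes and below for 4 in H929, where the groups did not overlap for 71.0% of all genes tested. In KMS11 they lay above for 17 and below for 6, against 53.4% of all genes tested. SQSTM1 was the only gene called within both lines, and 17 genes were called within neither. The count in H929 was 9 without its ethanol replicate 2, 10 or 11 without either of its fluvastatin replicates and 10 without either ethanol replicate of KMS11. In KMS11 all calls were lost without either of its ethanol replicates, and more genes passed without its fluvastatin replicate 2. In each of these fits, of both lines, the share of all genes tested past the threshold moved the same way.

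In H929 the autophagy factors that passed all rose, whereas the lysosomal genes that passed went both ways. Of 18 autophagy factors, 9 rose and 0 fell, with a median log2 fold change of 0.29 and a range from -0.20 to 1.26, and by unadjusted p under 0.05 there were 10 higher and 0 lower, by DESeq2 9 and 0. Of 15 lysosomal genes, 5 rose and 1 fell, with a median of 0.045 and a range from -1.03 to 1.77. In KMS11, 1 of 18 autophagy factors and 2 of 15 lysosomal genes rose and none fell, with medians of 0.066 and 0.143. No member fell in KMS11 by DESeq2 either, and 3 were lower by unadjusted p. Whether the classes differ from each other was described by these counts and not tested, and removal of trends with GC content gave medians of 0.335 and 0.148 for the 2 classes in H929. With it 12 autophagy factors were higher and 1 lower, ATG3 at -0.24 (adjusted p = 0.011). Of all genes tested 54.6% passed in H929 with that removal, against 42.0% in the main fit.

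**Figure D1:**
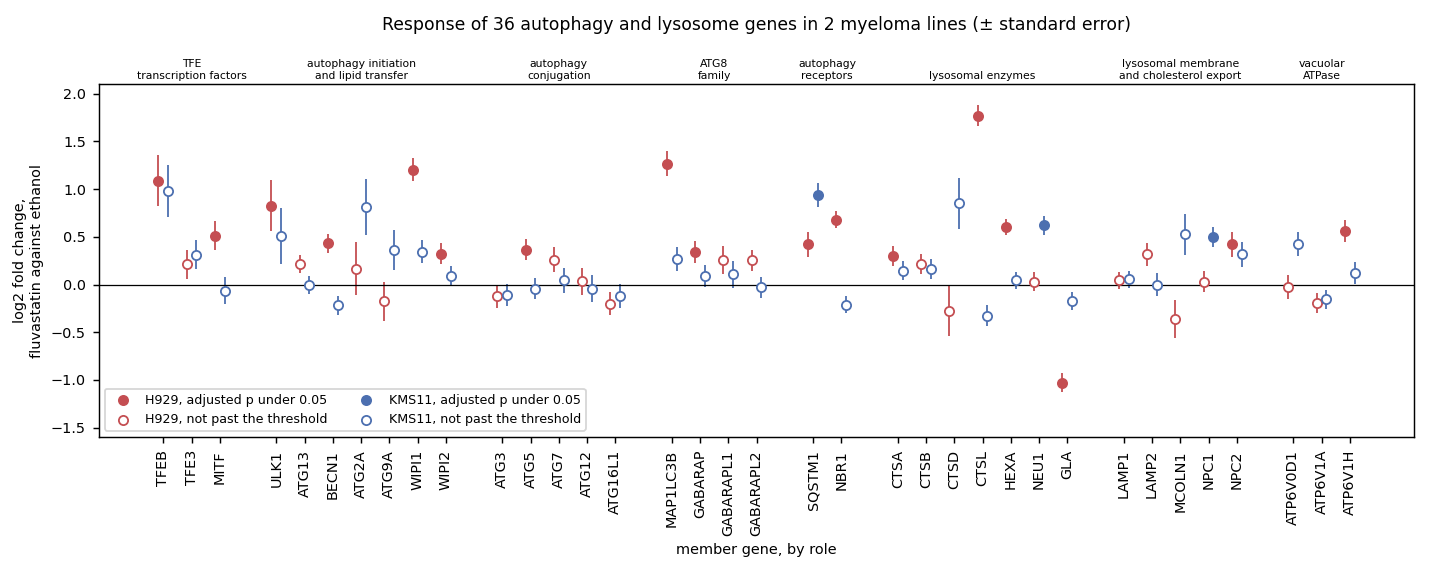
Log2 fold change of each of the 36 genes, fluvastatin against ethanol, in H929 (red) and KMS11 (blue), with bars of 1 standard error and filled points for an adjusted p under 0.05. CTSL (1.77), MAP1LC3B (1.26) and WIPI1 (1.20) stand highest in H929, GLA stands lowest (-1.03), and SQSTM1, NEU1 and NPC1 are the filled points of KMS11.

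TFEB, the best known activator of lysosomal genes, rose in H929. In H929 it measured 9.80 and 6.24 CPM in ethanol and 20.64 and 13.65 CPM in fluvastatin. KMS11 libraries measured 4.31 and 4.68 CPM in ethanol and 10.4 and 7.38 CPM in fluvastatin. Fluvastatin libraries lay above ethanol libraries in both lines, and replicate 1 lay above replicate 2 in 3 of the 4 groups. The log2 fold change was 1.09 ± 0.27 (SE) in H929, with an adjusted p of 0.0093 by the quasi-likelihood test of edgeR after Benjamini-Hochberg correction over all genes, the test behind every adjusted p given here unless another is named. It was 0.98 ± 0.28 in KMS11, which did not pass (adjusted p = 0.091), and the responses of the lines differed by -0.11 ± 0.39 (adjusted p = 0.88). With GC trends removed that difference was -0.74 and passed (adjusted p = 0.024), and TFEB has a GC content of 61.4%. The call in H929 was lost without ethanol replicate 2 (adjusted p = 0.065) or without fluvastatin replicate 1 (adjusted p = 0.069). In KMS11, TFEB passed under 6 of 18 alternatives, DESeq2 among them (adjusted p = 0.019).

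MITF, the relative that governs pigment and mast cells, was low in both lines and rose in H929. It was at 7.73 and 7.24 CPM in ethanol and at 9.92 and 11.44 CPM in fluvastatin there, groups that did not overlap, with a log2 fold change of 0.51 ± 0.15 (adjusted p = 0.022). KMS11 cells had it at 19.99 and 17.28 CPM in ethanol and at 17.19 and 18.42 CPM in fluvastatin, values that overlap. The rise in H929 missed the threshold without ethanol replicate 1, ethanol replicate 2 or fluvastatin replicate 2, with an adjusted p of 0.065, 0.11 and 0.15. On the TPM scale, with limma, its value was 0.19 (adjusted p = 0.34).

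TFE3 passed in neither line. It was at 36.04 and 27.56 CPM in ethanol and at 38.25 and 35.52 CPM in fluvastatin in H929, where the groups overlap. In KMS11 it was at 26.98 and 29.73 CPM in ethanol and at 38.67 and 31.73 CPM in fluvastatin, where they do not. Its log2 fold changes were 0.21 ± 0.15 (adjusted p = 0.30) and 0.31 ± 0.15 (adjusted p = 0.26), and with GC trends removed it passed in H929 (adjusted p = 0.0037).

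Among the 7 genes of initiation and lipid transfer, 4 rose in H929 and 0 passed in KMS11, where 2 were higher and 1 lower by unadjusted p and 0 passed with DESeq2. WIPI1, a reader of the lipid that marks the forming autophagosome, had the largest change of these in H929. It measured 44.54 and 35.81 CPM in ethanol and 94.19 and 91.17 CPM in fluvastatin in H929. KMS11 libraries measured 26.22 and 26.64 CPM in ethanol and 32.75 and 34.34 CPM in fluvastatin. The groups did not overlap in either line, and the step was larger in H929. The gene, at chr17:68420948-68457513 on the minus strand, was 2.31-fold higher in H929 (log2 1.20 ± 0.12, adjusted p = 4.9e-05) and 1.27-fold higher in KMS11, where it did not pass (adjusted p = 0.14). Its responses differed by -0.86 ± 0.16 (adjusted p = 0.006).

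BECN1, which encodes Beclin 1 of the lipid kinase complex, rose in H929 and had the opposite sign in KMS11. It was at 58.9 and 57.73 CPM in ethanol and at 75.4 and 82.23 CPM in fluvastatin in H929. KMS11 cells had it at 130.2 and 141.8 CPM in ethanol and at 110.0 and 123.6 CPM in fluvastatin. KMS11 held more of this transcript than H929 in every library, and the treatment groups overlapped in neither line. The log2 fold changes were 0.43 ± 0.10 (adjusted p = 0.0062) and -0.22 ± 0.10 (adjusted p = 0.23), a difference of -0.65 ± 0.14 (adjusted p = 0.0095). With limma on log2(TPM + 1) the rise in H929 was 0.30 and missed the threshold (adjusted p = 0.071). The rise missed the threshold without fluvastatin replicate 2 of H929 (adjusted p = 0.054), and the difference without ethanol replicate 2 of KMS11 (adjusted p = 0.068).

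ULK1, the kinase at the head of the pathway, was the lowest of the 36 genes in 3 of the 4 groups. It was at 7.15 and 4.92 CPM in ethanol and at 12.34 and 9.14 CPM in fluvastatin in H929. In KMS11 it was at 2.24 and 2.24 CPM in ethanol and at 4.01 and 2.45 CPM in fluvastatin. Both lines had their higher values in fluvastatin, with replicates of fluvastatin far apart. It rose in H929 by a log2 fold change of 0.83 ± 0.27 (adjusted p = 0.033), and its value of 0.51 ± 0.29 in KMS11 did not pass (adjusted p = 0.33). The rise was lost without ethanol replicate 2 (0.19) or fluvastatin replicate 1 (0.18) of H929 and without either ethanol replicate of KMS11 (0.052 and 0.053), given as adjusted p.

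WIPI2 also rose in H929, by a log2 fold change of 0.32 ± 0.11 (adjusted p = 0.039), from 24.71 and 23.04 CPM to 29.42 and 30.24 CPM. This call was lost without any 1 of the 4 libraries of H929 or without either ethanol replicate of KMS11, with an adjusted p from 0.08 to 0.18. It was also lost without a filter (0.059), with all annotated genes (0.073), with the H929 libraries alone (0.052) and with limma on log2(TPM + 1), where its value was 0.09 (0.57), given as adjusted p. ATG13, a partner of ULK1, and the lipid movers ATG2A and ATG9A did not pass in either line. ATG2A had a value of 0.81 ± 0.29 in KMS11 (adjusted p = 0.16), where its fluvastatin libraries were at 14.48 and 7.91 CPM and its ethanol libraries at 6.94 and 5.72 CPM. It passed there without a filter (0.035) and without fluvastatin replicate 2, where its value was 1.15 (0.0075), and in H929 with GC trends removed, where it was 0.39 (0.017), given as adjusted p.

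Of the 5 conjugation genes, 1 rose in H929 and 0 passed in KMS11, also 0 by unadjusted p and 0 by DESeq2. ATG5, which is joined to ATG12 to form the enzyme that directs ATG8 proteins to the membrane, rose from 54.11 and 58.97 CPM to 68.59 and 76.92 CPM in H929 (log2 0.36 ± 0.11, adjusted p = 0.021). That call was lost without ethanol replicate 1 (0.14) or fluvastatin replicate 2 (0.16) of H929 or without either ethanol replicate of KMS11 (0.073), given as adjusted p. With limma on log2(TPM + 1) the rise of ATG5 was 0.24 and missed the threshold (adjusted p = 0.22). The others, ATG3, ATG7, ATG12 and ATG16L1, had log2 fold changes from -0.20 to 0.26 in H929. In KMS11 all 5 lay between -0.12 and 0.04. Medians of the list were 0.032 and -0.043, so that conjugation stood nearest to 0 of the autophagy lists in both lines.

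In the ATG8 family, 2 of 4 genes rose in H929 and 0 passed in KMS11, with 0 by unadjusted p and 0 by DESeq2 there. MAP1LC3B encodes LC3B, the protein commonly used to follow autophagosomes. It measured 18.17 and 20.44 CPM in ethanol and 40.71 and 51.95 CPM in fluvastatin in H929. KMS11 libraries measured 52.42 and 52.31 CPM in ethanol and 61.56 and 64.45 CPM in fluvastatin. Treated H929 cells thus stayed at or below the level of untreated KMS11 cells. The gene, at chr16:87383953-87404779 on the plus strand, was 2.40-fold higher in H929 (log2 1.26 ± 0.13, adjusted p = 7.2e-05) and 1.20-fold higher in KMS11 without passing (adjusted p = 0.25), a difference of -1.0 ± 0.18 (adjusted p = 0.0047). Fragments of its near-identical copy MAP1LC3B2 may be divided between the genes by RSEM, and that copy was listed at 0.16 to 0.926 CPM.

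The other 3 ATG8 genes moved less. GABARAP was at 72.04 and 60.89 CPM in ethanol and at 84.14 and 84.28 CPM in fluvastatin in H929 (log2 0.34 ± 0.11, adjusted p = 0.032). KMS11 cells had it at 19.31 and 21.39 CPM in ethanol and at 21.05 and 22.28 CPM in fluvastatin, groups that overlap. Without ethanol replicate 2 its adjusted p in H929 was 0.24, and it was 0.11 and 0.12 without fluvastatin replicate 1 and 2, and 0.08 without either ethanol replicate of KMS11. GABARAP also missed the threshold in H929 with all annotated genes (0.064) and with limma on log2(TPM + 1) (0.052), given as adjusted p. GABARAPL1 was at 12.52 and 11.8 CPM and then 15.02 and 14.09 CPM in H929, and at 11.35 and 9.90 CPM and then 12.06 and 10.83 CPM in KMS11. GABARAPL2 was at 38.93 and 42.65 CPM and then 46.77 and 50.62 CPM in H929, and at 72.64 and 64.32 CPM and then 63.58 and 70.5 CPM in KMS11. Neither passed in either line, with log2 fold changes of 0.26 for each in H929 and of 0.11 and -0.03 in KMS11, and the groups of H929 did not overlap for either gene.

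SQSTM1 encodes p62, which binds ubiquitinated cargo and LC3 and is itself degraded by autophagy. It measured 99.37 and 81.93 CPM in ethanol and 126.3 and 116.3 CPM in fluvastatin in H929. In KMS11 it measured 141.5 and 146.3 CPM in ethanol and 304.5 and 246.9 CPM in fluvastatin. The groups were apart in both lines and the largest values were those of treated KMS11 cells. The gene, at chr5:179806398-179838078 on the plus strand, rose 1.34-fold in H929 (log2 0.42 ± 0.13, adjusted p = 0.024) and 1.92-fold in KMS11 (log2 0.94 ± 0.13, adjusted p = 0.0042), and the difference of 0.52 ± 0.18 did not pass (adjusted p = 0.061). With limma on log2(TPM + 1) the value in H929 was 0.33 and missed the threshold (adjusted p = 0.079). The call in KMS11 was lost without its ethanol replicate 1 (adjusted p = 0.078) or 2 (adjusted p = 0.06). That in H929 was lost without ethanol replicate 2 (0.17) or fluvastatin replicate 1 (0.11) of H929, or without an ethanol replicate of KMS11 (0.053 and 0.054), given as adjusted p.

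NBR1, a receptor of similar build that also binds ubiquitin and LC3, behaved otherwise. It measured 150.9 and 142.6 CPM in ethanol and 237.2 and 233.4 CPM in fluvastatin in H929. KMS11 libraries measured 136.1 and 127.6 CPM in ethanol and 116.7 and 111.1 CPM in fluvastatin. Fluvastatin libraries were thus the highest of H929 and the lowest of KMS11. The gene, at chr17:43170481-43211689 on the plus strand, rose 1.60-fold in H929 (log2 0.68 ± 0.09, adjusted p = 0.00024), its value in KMS11 was -0.21 ± 0.09 (adjusted p = 0.19), and the difference of -0.89 ± 0.12 passed (adjusted p = 0.0013).

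Of the 7 lysosomal enzymes, 3 rose and 1 fell in H929, and 1 rose in KMS11. CTSL, the gene of the cysteine protease cathepsin L, measured 23.68 and 23.08 CPM in ethanol and 77.73 and 81.83 CPM in fluvastatin in H929. The KMS11 libraries held 40.28 and 46.27 CPM in ethanol and 32.78 and 36.22 CPM in fluvastatin. Treated H929 cells had the highest level of the 4 groups, although untreated H929 cells had the lowest. Within H929 the gene, at chr9:87724051-87731469 on the plus strand, rose 3.41-fold (log2 1.77 ± 0.11, adjusted p = 4.9e-06), and in KMS11 its value was -0.33 ± 0.11 (adjusted p = 0.13). The responses differed by -2.10 ± 0.16 (adjusted p = 9.4e-05), the largest difference among the 36 genes. In KMS11 it passed as lower with GC trends removed (adjusted p = 0.042) and without fluvastatin replicate 2 (adjusted p = 0.04). Its paralog CTSV, which could take some of its fragments, was at 3.95 to 19.77 CPM.

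GLA, alpha-galactosidase A, the enzyme that is lacking in Fabry disease, was the gene that fell. It measured 40.7 and 38.73 CPM in ethanol and 19.85 and 19.13 CPM in fluvastatin in H929. In KMS11 it measured 77.88 and 85.49 CPM in ethanol and 71.59 and 73.45 CPM in fluvastatin. Replicates lay close together and the treatment groups were apart in both lines. The gene, at chrX:101393273-101408012 on the minus strand, was 2.04-fold lower in H929 (log2 -1.03 ± 0.10, adjusted p = 5.1e-05), with -0.17 ± 0.09 in KMS11 (adjusted p = 0.31) and a difference of 0.86 ± 0.14 (adjusted p = 0.0026).

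HEXA encodes the alpha subunit of beta-hexosaminidase A, which breaks down gangliosides. It was at 56.22 and 58.09 CPM in ethanol and at 85.94 and 87.47 CPM in fluvastatin in H929. The libraries of KMS11 were at 91.01 and 97.57 CPM in ethanol and at 97.55 and 96.75 CPM in fluvastatin, so that treatment groups overlapped there alone. It rose by a log2 fold change of 0.60 ± 0.09 in H929 (adjusted p = 0.00047) and had 0.04 ± 0.09 in KMS11 (adjusted p = 0.80), a difference of -0.56 ± 0.12 (adjusted p = 0.01). Without ethanol replicate 2 of KMS11 the difference was -0.50 (adjusted p = 0.076).

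NEU1, a sialidase that works in a complex with cathepsin A, showed the reverse. It was at 90.89 and 84.81 CPM in ethanol and at 93.27 and 86.26 CPM in fluvastatin in H929, where the groups overlap. KMS11 cells had it at 60.71 and 60.24 CPM in ethanol and at 99.57 and 86.47 CPM in fluvastatin, where they do not. It rose in KMS11 by a log2 fold change of 0.62 ± 0.10 (adjusted p = 0.01), with 0.03 ± 0.10 in H929 (adjusted p = 0.84) and a difference of 0.59 ± 0.14 (adjusted p = 0.016). With limma on log2(TPM + 1) neither the rise (0.44, adjusted p = 0.079) nor the difference (0.41, adjusted p = 0.1) passed. The call in KMS11 was lost without its ethanol replicate 1 (adjusted p = 0.16) or 2 (adjusted p = 0.17). The difference was lost without ethanol replicate 1 (0.06) or fluvastatin replicate 2 (0.066) of H929 or ethanol replicate 1 (0.066) or 2 (0.064) of KMS11, given as adjusted p.

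CTSA, the protective partner of NEU1, rose in H929 from 73.61 and 64.73 CPM to 83.39 and 86.9 CPM (log2 0.30 ± 0.10, adjusted p = 0.038). Its call was lost without ethanol replicate 2 (0.24), fluvastatin replicate 1 (0.087) or fluvastatin replicate 2 (0.16) of H929 or either ethanol replicate of KMS11 (0.092), given as adjusted p. CTSA also missed the threshold with all annotated genes (0.081) and with limma on log2(TPM + 1) (0.2), given as adjusted p. CTSB and CTSD, the other cathepsins, passed in neither line, with log2 fold changes of 0.21 ± 0.11 and -0.28 ± 0.26 in H929. CTSD is among the genes richest in GC, at 64.0%, and its treated KMS11 libraries were at 68.49 and 35.7 CPM against 28.67 and 28.91 CPM in ethanol. Its value of 0.85 ± 0.27 in KMS11 (adjusted p = 0.12) therefore rests on replicates that were far apart, and without fluvastatin replicate 2 it was 1.21 (adjusted p = 0.0014).

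**Figure D2:**
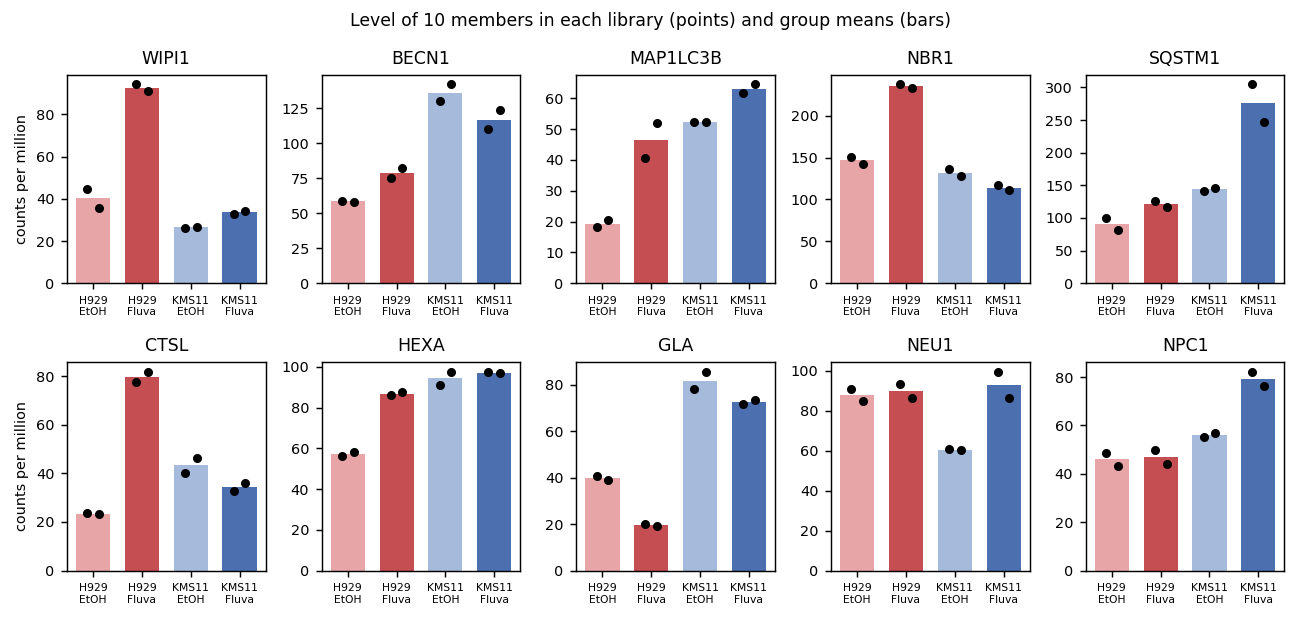
CPM of 10 genes in each library (points) with the mean of each group (bars), for the 9 genes whose response differed between the lines and SQSTM1. CTSL goes from 23.08 to 23.68 CPM to 77.73 to 81.83 CPM in H929 while KMS11 has 40.28 to 46.27 CPM and then 32.78 to 36.22 CPM, and NEU1 and NPC1 step up in KMS11 alone.

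Of the 5 genes of the lysosomal membrane and of cholesterol export, 1 rose in each line. NPC1, the membrane protein that passes cholesterol out of the lysosome, was at 48.8 and 43.09 CPM in ethanol and at 49.93 and 44.06 CPM in fluvastatin in H929, where replicate 1 was the higher in both groups. In KMS11 it was at 55.03 and 57.05 CPM in ethanol and at 82.21 and 76.4 CPM in fluvastatin. Treatment groups were apart in KMS11 and overlapped in H929. The gene, at chr18:23506184-23586506 on the minus strand, rose in KMS11 by a log2 fold change of 0.50 ± 0.11 (adjusted p = 0.037), with 0.03 ± 0.11 in H929 (adjusted p = 0.84) and a difference of 0.47 ± 0.15 that was close to the threshold (adjusted p = 0.049). The rise missed the threshold without ethanol replicate 1 (0.33), ethanol replicate 2 (0.28) or fluvastatin replicate 1 (0.11) of KMS11, given as adjusted p. The difference was lost in 6 of the 8 fits that each left out a library, without either ethanol replicate or fluvastatin replicate 2 of H929 and without either ethanol replicate or fluvastatin replicate 1 of KMS11, with an adjusted p from 0.053 to 0.18. It was also lost with DESeq2 (0.081), median-of-ratios scaling (0.069), a minimum count of 50 (0.052) and limma on log2(TPM + 1) (0.24), and the rise in KMS11 was lost with all annotated genes (0.053) and with limma, where its value was 0.25 (0.27), given as adjusted p.

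NPC2, the soluble carrier that hands cholesterol to NPC1, rose in H929 from 26.24 and 28.44 CPM to 35.17 and 37.97 CPM (log2 0.42 ± 0.13, adjusted p = 0.027). It missed the threshold without any 1 of the 4 libraries of H929 or either ethanol replicate of KMS11, with an adjusted p from 0.054 to 0.14. The libraries of KMS11 were at 23.95 and 28.5 CPM in ethanol and at 30.36 and 34.81 CPM in fluvastatin, and 0.31 ± 0.13 did not pass (adjusted p = 0.19). LAMP1 and LAMP2, the most abundant proteins of the membrane, passed in neither line. LAMP2 was at 112.7 and 128.7 CPM in ethanol and at 136.2 and 164.0 CPM in fluvastatin in H929, groups that did not overlap. It passed there with DESeq2 (0.33, adjusted p = 0.046) and with a minimum count of 50 (0.33, adjusted p = 0.049). LAMP1, whose window holds the most E-boxes of these genes, had log2 fold changes of 0.05 ± 0.09 in both lines. MCOLN1, a calcium channel of the lysosome, had -0.36 ± 0.20 in H929 (adjusted p = 0.17) and 0.53 ± 0.21 in KMS11 (adjusted p = 0.19).

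In the vacuolar ATPase, ATP6V1H, a subunit of the outer sector, rose in H929 from 29.1 and 32.33 CPM to 42.55 and 48.2 CPM (log2 0.56 ± 0.12, adjusted p = 0.0035). ATP6V1A, the catalytic subunit, and ATP6V0D1 of the membrane sector passed in neither line, with -0.19 ± 0.10 and -0.03 ± 0.13 in H929. No subunit passed in KMS11, where 1 was higher by unadjusted p and 0 passed with DESeq2. The 3 subunits had values from -0.19 to 0.56 in H929.

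The 5 genes whose windows hold the CLEAR core had log2 fold changes in H929 of 0.30 (CTSA), 0.05 (LAMP1), -0.03 (ATP6V0D1), -0.12 (ATG3) and -0.36 (MCOLN1), and CTSA alone of them passed. In KMS11 none of them passed, with 0.53 for MCOLN1, 0.425 for ATP6V0D1 and 0.05 for LAMP1. By group mean, CTSA was higher there in fluvastatin (131.4 against 119.0 CPM) and ATG3 lower (129.3 against 139.5 CPM). NEU1 and CTSD, with the shorter E-box alone, did not pass in H929. In KMS11 NEU1 passed and CTSD had 0.85 without passing. The 5 genes with the largest changes in H929, CTSL, MAP1LC3B, WIPI1, TFEB and GLA, were among those with no match. So were SQSTM1 and NPC1, the other genes called in KMS11. A link between these letters and the responses was not tested, and sites outside the windows were not searched.

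Across both lines, with a term for the line, 4 genes rose and 0 fell, against 10.4% of all genes tested, 6.50% higher and 3.93% lower. These were TFEB (log2 1.04 ± 0.21, adjusted p = 0.022), WIPI1 (0.78 ± 0.17, adjusted p = 0.03), MAP1LC3B (0.76 ± 0.20, adjusted p = 0.046) and SQSTM1 (0.68 ± 0.13, adjusted p = 0.02). Of these, SQSTM1 alone passed within KMS11. The model fits a single response to both lines, although those of WIPI1 and MAP1LC3B differed between them (-0.86 and -1.0). None is a lysosomal gene: 0 of 15 passed, where 6 were higher and 1 lower by unadjusted p and DESeq2 called 1 higher and 1 lower. For lower members as a whole, 1 was lower by unadjusted p and DESeq2 called 1. MAP1LC3B kept its call without fluvastatin replicate 1 of KMS11 and lost it without any other single library. WIPI1 lost its call without any 1 of the 4 libraries of H929. TFEB and SQSTM1 lost theirs without ethanol replicate 2 or fluvastatin replicate 1 of H929, and SQSTM1 also without ethanol replicate 2 of KMS11. With limma on log2(TPM + 1), TFEB (0.051), WIPI1 (0.056) and MAP1LC3B (0.11) missed the threshold, given as adjusted p. MAP1LC3B also missed it with all annotated genes (adjusted p = 0.051).

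The responses of the lines differed for 9 of the 36 genes, against 23.2% of all genes tested. For 6 the value of KMS11 was the lower, namely BECN1, WIPI1, MAP1LC3B, NBR1, CTSL and HEXA, which is 4 autophagy factors and 2 lysosomal enzymes. For 3 it was the higher, NEU1, GLA and NPC1, all lysosomal. CTSD and MCOLN1 had larger positive differences, 1.13 and 0.89, that did not pass. CTSD passed with median-of-ratios scaling (adjusted p = 0.046) and MCOLN1 with DESeq2 (adjusted p = 0.042). With GC trends removed 3 members were higher and 13 lower, and 33.0% of all genes tested passed. In the main fit 11.5% of all genes had the lower and 11.7% the higher value in KMS11. Of the 18 autophagy factors 4 were lower and 0 higher in KMS11, where 1 was higher by unadjusted p and by DESeq2, and without fluvastatin replicate 2 of KMS11 they were 5 lower and 3 higher. More genes differed with fluvastatin replicate 2 of KMS11 left out and fewer with its ethanol replicate 2 left out. The share of all genes tested moved the same way.

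The lines also differed before treatment. In ethanol, 27 of the 36 genes differed between KMS11 and H929, 15 higher and 12 lower in KMS11, against 72.0% of all genes tested. Among autophagy factors 6 were higher and 7 lower, and among lysosomal genes 8 and 4. The largest values higher in KMS11 were those of LAMP1 (log2 1.56 ± 0.09, adjusted p = 2.2e-07), MAP1LC3B (1.44 ± 0.13, adjusted p = 5.6e-06) and ATP6V1A (1.43 ± 0.10, adjusted p = 1.2e-06). The largest lower in KMS11 were MCOLN1 (-2.23 ± 0.21, adjusted p = 7.7e-06), CTSD (-1.71 ± 0.27, adjusted p = 0.00028) and GABARAP (-1.71 ± 0.12, adjusted p = 7.4e-07). LAMP1 was at 49.68 and 51.97 CPM in H929 and at 153.6 and 146.3 CPM in KMS11, while MCOLN1 was at 24.13 and 19.16 CPM and at 4.15 and 5.09 CPM. On log2(TPM + 1) with limma the split was 19 higher and 5 lower, with 20 of the 24 among the 27, and on that scale the median of all genes tested was itself at 0.315 rather than -0.020.

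Levels per length, in TPM, allow genes to be set side by side within a group. GABARAP was the most abundant of the 36 in H929, at 60.15 ± 8.03 TPM (SD, n = 2) in ethanol and 76.68 ± 0.19 TPM in fluvastatin, well above the next genes. These were CTSD at 32.48 ± 3.97 TPM, CTSB at 32.36 ± 2.06 TPM and ATG3 at 31.64 ± 2.57 TPM in ethanol, which differ by less than their spread. CTSL went from 9.06 ± 0.15 TPM to 30.3 ± 1.61 TPM and so to the third place of that order in fluvastatin, level with WIPI1 at 30.23 ± 1.21 TPM and HEXA at 29.34 ± 0.06 TPM. In KMS11 the order was led by ATG3 at 71.19 ± 6.47 TPM, LAMP2 at 69.37 ± 1.32 TPM and ATP6V1A at 68.36 ± 5.99 TPM in ethanol, again not apart, and by SQSTM1 at 79.66 ± 7.90 TPM in fluvastatin, with LAMP2 at 66.3 ± 10.59 TPM next. ULK1, ATG2A, MITF and TFEB were among the least abundant, and ULK1 was at 0.755 ± 0.191 TPM in H929 and 0.44 ± 0.06 TPM in KMS11 in ethanol. The median of lysosomal genes exceeded that of autophagy factors in each group, at 18.2 against 13.11 TPM in H929 and 24.58 against 16.4 TPM in KMS11 in ethanol, and at 21.0 against 15.71 TPM and 29.23 against 16.88 TPM in fluvastatin.

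**Figure D3:**
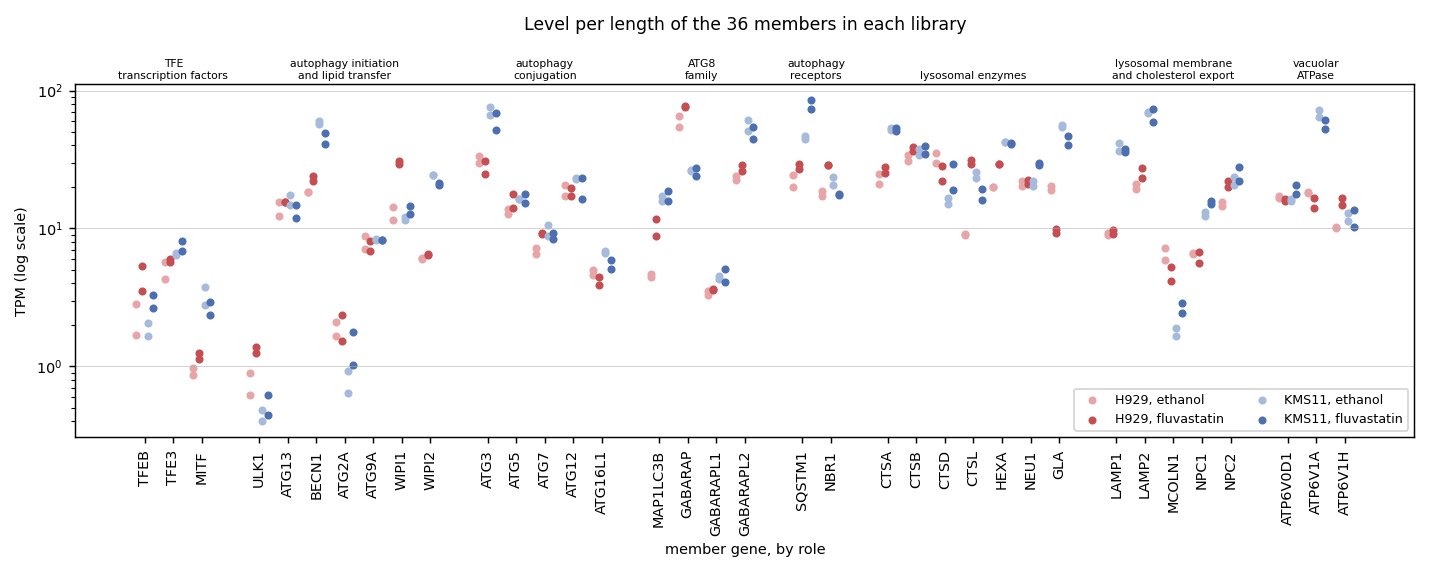
TPM of each of the 36 genes in each library on a log axis, grouped by role, with light points for ethanol and dark points for fluvastatin. Members span about 2 orders of magnitude, from ULK1 at 0.44 TPM to SQSTM1 at 79.66 TPM by group mean, and the lines stand apart for LAMP1, ATP6V1A and GABARAP whatever the treatment.

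Replicates of a group differed in a way that followed the GC content of the genes. Across the 36 genes, the log2 ratio of replicate 1 to replicate 2 had a Pearson correlation with GC content of 0.808 in H929 in ethanol, 0.828 in H929 in fluvastatin, -0.069 in KMS11 in ethanol and 0.909 in KMS11 in fluvastatin. Genes are not independent replicates, and these values are a description. TFEB, ULK1, ATG2A, CTSD and MCOLN1, all above 60% GC, had standard errors of 0.20 to 0.29 within a line. Median GC content was 48.9% for autophagy factors and 49.1% for lysosomal genes, which are close to each other. With trends removed, 24 members passed in H929, 21 higher and 3 lower, and 7 in KMS11, 6 higher and 1 lower. The share of all genes tested that passed was then 54.6% in H929 and 11.8% in KMS11, against 42.0% and 3.12% in the main fit.

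**Figure D4:**
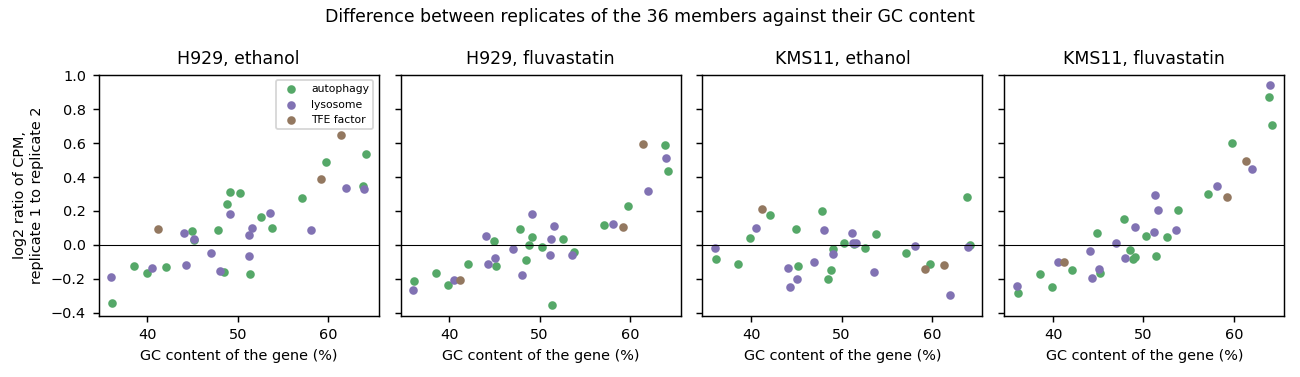
Log2 ratio of CPM, replicate 1 to replicate 2, against the GC content of the longest transcript for each of the 36 genes, in the 4 groups. The ratio climbs with GC content in 3 groups, to 0.94 for CTSD in treated KMS11 cells, and does not in KMS11 in ethanol.

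The rest of the pathway was read from 148 further genes of 6 lists, of which 143 were tested. In H929 50 rose and 8 fell, with a median log2 fold change of 0.242, which is 40.6% called against 42.0% of all genes tested. In KMS11 6 rose and 0 fell, 4.20% against 3.12%, where 5 were lower by unadjusted p and 0 by DESeq2, with a median of 0.085. The further 43 autophagy genes tested gave 16 higher and 0 lower in H929 (1 lower by unadjusted p and 0 by DESeq2) and the further 85 lysosomal genes 28 higher and 7 lower. In KMS11 these were 4 and 0 of the autophagy genes (2 lower by unadjusted p and 0 by DESeq2) and 0 and 0 of the lysosomal ones, of which 20 were higher and 3 lower by unadjusted p and DESeq2 called 1.

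Of the receptors of selective autophagy and their partners, OPTN, which encodes the receptor optineurin for damaged mitochondria, was at 30.35 and 26.68 CPM in ethanol and at 130.6 and 138.4 CPM in fluvastatin in H929, and it rose there by a log2 fold change of 2.24 ± 0.10 (adjusted p = 1.6e-06). In KMS11 it went from 89.73 and 85.32 CPM to 124.2 and 127.5 CPM and rose by 0.52 ± 0.09 (adjusted p = 0.017), a difference of -1.71 ± 0.14 (adjusted p = 0.00011). RETREG1, a receptor for the endoplasmic reticulum, rose by 1.95 ± 0.16 and TP53INP1, which binds LC3, by 1.90 ± 0.12 in H929. Of the 15 genes of this list 8 rose in H929 and 2 in KMS11, the second being TP53INP2, at 3.42 and 3.69 CPM in ethanol and 9.10 and 7.18 CPM in fluvastatin (log2 1.19 ± 0.22, adjusted p = 0.019).

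Among 28 other autophagy factors tested, 8 rose in H929, led by WDR45 (1.03 ± 0.16), ZFYVE1 (0.89 ± 0.16) and the fusion protein VAMP8 (0.80 ± 0.12), and 2 rose in KMS11, RUBCN (0.54 ± 0.12) and VMP1 (0.51 ± 0.11), all as log2 fold changes. Of 43 other hydrolases, 15 rose in H929, led by CTSO (1.10 ± 0.13), AGA (1.08 ± 0.15) and the ceramidase ASAH1 (1.07 ± 0.11), and 3 fell, CTSC (-0.63 ± 0.11), ARSB (-0.45 ± 0.11) and SCPEP1 (-0.44 ± 0.09). None passed in KMS11, where 10 were higher and 2 lower by unadjusted p and DESeq2 called 0. Of 25 other membrane proteins 9 rose and 1 fell in H929. CD68 (1.96 ± 0.26), LAMP3 (1.79 ± 0.55) and HGSNAT (1.25 ± 0.14) rose most and TPCN1 fell (-0.70 ± 0.19). LAMP3 was under 1 CPM in H929, at 0.102 and 0.24 CPM in ethanol and 0.395 and 0.765 CPM in fluvastatin. In KMS11 0 of the 25 passed, 6 higher and 0 lower by unadjusted p and 1 by DESeq2.

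Other subunits of the vacuolar ATPase moved both ways in H929. Of 17 tested, 4 rose, with ATP6V0E1 at 0.62 ± 0.10, ATP6V1D at 0.47 ± 0.11 and ATP6V1G1 at 0.34 ± 0.10, and 3 fell, ATP6V0E2 at -0.67 ± 0.22, ATP6V0B at -0.65 ± 0.13 and ATP6V1F at -0.41 ± 0.14, as log2 fold changes. In KMS11 0 passed, 4 higher and 1 lower by unadjusted p and 0 by DESeq2. Of 15 genes for the sorting of enzymes and the control of TFE factors, 6 rose and 1 fell in H929 and 2 rose in KMS11. RRAGC, a GTPase that holds TFE factors and mTORC1 at the lysosome, rose in both lines, from 26.75 and 29.24 CPM to 49.93 and 59.6 CPM in H929 (0.97 ± 0.12, adjusted p = 0.00025) and from 23.33 and 23.24 CPM to 34.55 and 38.96 CPM in KMS11 (0.66 ± 0.12, adjusted p = 0.022). IGF2R, a receptor that sorts enzymes to the lysosome, rose in KMS11 by 0.54 ± 0.11 (adjusted p = 0.03) and in H929 by 0.63 (adjusted p = 0.0013), and M6PR, the other such receptor, fell in H929 by 0.34 on the log2 scale (adjusted p = 0.018). TFEC rose by 2.04 ± 0.55 and RRAGB by 0.78 ± 0.20 in H929, the former at 0.805 CPM or less in every library. In bulk RNA a change in the share of cells in a given state and a change of RNA per cell cannot be told apart.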

How the data were processed

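Total RNA of H929 and KMS11 cells was sequenced after ribosomal depletion, in paired reads of 75 bases. Per the labels, the authors aligned reads to hg38 with STAR 2.5.2b and quantified GENCODE 26 genes with RSEM 1.3.0. The deposited files hold an expected count and a TPM value per gene and library. Whether RSEM used strand was not given in the sources used here.

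Expected counts of protein-coding genes were rounded, filtered (count minimum 10) and scaled by TMM, and fitted over all genes with edgeR 4.0.16 (R 4.3.3), by its quasi-likelihood test with Benjamini-Hochberg adjustment at 0.05. CPM refers to the protein-coding counts, which were 85.2 to 91.4% of each library. A model of group means gave the responses within each line, their difference and the lines in ethanol, and an additive model gave the response across lines. The standard error is the log2 fold change over the square root of F. Positions and GC content (longest transcript) are from GENCODE 44, which held 57392 of the 58219 gene IDs.

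Values in every library were given for the TFE factors, the ATG8 family and SQSTM1, and for members called within KMS11 or in the difference. They were also given for members called within H929 with a log2 change of at least 0.58. The 3 largest differences each way in ethanol were named with their log2 fold changes. So were up to 3 largest rises and falls per list and line of other pathway genes, with library values for some of them. A few further members were described after their values were seen. Members and lists were chosen with earlier results of these data known. The labels call the replicates biological, and p-values measure only the spread between these samples. Alternatives were DESeq2 1.42.0, other scalings and filters, limma 3.58.1 on log2(TPM + 1), a replicate block, removal of GC trends and leaving out each library. The fit was also run on counts simulated without trends in GC content. That run cannot show how the fit handles the trends seen between these replicates.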

Additional observations from a re-analysis of the deposited data

Results flagged for a closer look

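The response to fluvastatin of KMS11 differed from that of H929 for 9 genes, when the difference was put to a test, given here as the log2 fold change of KMS11 minus that of H929. It was -0.65 for BECN1, -0.86 for WIPI1, -1.0 for MAP1LC3B and -0.89 for NBR1 among the autophagy factors, and -2.10 for CTSL and -0.56 for HEXA among the lysosomal enzymes. It was 0.59 for NEU1, 0.86 for GLA and 0.47 for NPC1. Groups held 2 libraries each, too few for the test of a single outlying library, and values with each library left out are given beside the results.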

How the results depend on the processing

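A set of 34 results was followed, the calls of genes with values in every library and the 3 largest differences each way in ethanol. Of these, 0 reversed and 17 kept their call under every alternative run, those of CTSL, MAP1LC3B, WIPI1, NBR1, GLA and HEXA in H929 among them. The calls of WIPI2, ATG5, CTSA, NPC2 and ATP6V1H in H929 and the other ethanol differences are not in this set. Some of those changed sign. ATG12 and ATG13, lower in KMS11 in ethanol, had 0.28 and 0.21 with limma on log2(TPM + 1), and TFEB had 0.11 with GC trends removed. Outside leaving out a library, 295 of 319 values kept their direction and call and 24 missed the threshold, and with a library left out 218 of 272 kept them and 54 did not. The number of called genes in H929 (17) was 10 with limma on log2(TPM + 1) and 9 to 17 with a library left out. In KMS11 (3) it was 6 without a filter, 1 with limma, 7 with GC trends removed and 0 to 10 with a library left out. Across lines (4) it was 7 with DESeq2, 2 with limma, 8 with GC trends removed, 0 without a term for the line and 0 to 6 with a library left out. Differences between responses (9) numbered 16 with GC trends removed and 5 to 17 with a library left out, and differences in ethanol (27) 23 to 28. With 1 library left out, the lone library of a group is assumed to vary like the other groups. With GC trends removed the share of all genes called was 54.6% in H929 and 11.8% in KMS11. It was 23.5% across lines and 33.0% for the difference.

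The median of lysosomal genes in H929 (0.045) was 0.056 with DESeq2 and with median-of-ratios scaling, 0.035 without a filter, 0.062 with a minimum count of 50, -0.004 with all annotated genes, 0.039 with limma, 0.148 with GC trends removed, 0.04 with the libraries of H929 alone and 0.009 to 0.122 with a library left out. That of autophagy factors in KMS11 (0.066) was 0.029 with DESeq2 and with median-of-ratios scaling, -0.071 with limma, 0.02 with GC trends removed and -0.003 to 0.065 with a library left out, and that of lysosomal genes there (0.143) was -0.003 with limma. The cause of these shifts was not tested.

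Replicate numbers were not taken to pair the samples, as the labels name no shared batch and the correlation of deviations was 0.774 in H929 but -0.0783 in KMS11. With the replicate block 18 genes were called in H929, 7 in KMS11, 1 across lines and 14 in the difference. The shares of all genes tested were then 48.9%, 12.5%, 1.2% and 32.2%. For ethanol alone the block could not be fitted, since it is nested within the lines.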

Other observations

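Among the other pathway genes, the CLEAR core TCACGTGA was found in RefSeq promoter windows of 8 of 64 lysosomal genes, of 1 of 36 autophagy genes, NRBF2, and of 4 of 13 genes for sorting and TFE control, GNPTG, IGF2R, NAGPA and RRAGB, against 321 of all 27305 genes with a window. Of the 13 genes with a match, CLN3, ATP6V1G1, IGF2R and RRAGB rose and SCPEP1 fell in H929, by log2 fold changes of 0.86, 0.34, 0.63, 0.78 and -0.44, and IGF2R alone passed in KMS11, at 0.54. A link between the letters and these changes was not tested.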
